A study of Homo sapiens with 20 samples.

Results

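The cytosolic ribosome is built from a small and a large subunit, each made of ribosomal RNA and a set of ribosomal proteins that a cell needs in nearly equal numbers. The genes for these proteins are among the most highly expressed in growing cells, and most of their mRNAs begin with a run of pyrimidines through which mTOR, acting in part through LARP1, controls their translation. FOXO1 is a transcription factor that PI3K and AKT signalling keeps out of the nucleus, and MYC is an activator of ribosome production. Here the ribosomal protein genes were followed in Hodgkin lymphoma cell lines in which a form of FOXO1 was switched on. Members were the probe sets with exactly 1 gene symbol that begins with RPL, RPS or RPLP followed by a number, which leaves out the RPS6 kinases. The rule found 100 probe sets of 65 genes, among 19457 probe sets of 18416 genes with 1 symbol. Of the 65 genes, 43 encode proteins of the large subunit or their close copies and 22 proteins of the small subunit or their copies.

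RNA came from 5 established lines of classical Hodgkin lymphoma, namely SUP-HD1, UHO-1, KM-H2, L428 and one labelled L1236. Every line, treated or not, expressed FOXO1(3A)ER, a constitutively active FOXO1 mutant fused to the oestrogen receptor's hormone-binding part, which 4-hydroxytamoxifen (4-OHT) activates. In each line, 2 arrays after 24 h with 4-OHT were set against 2 arrays after ethanol vehicle, 20 Affymetrix Human Gene 1.0 ST arrays in 10 groups. The labelled dose is 200 µM, but the protocol text that gives it names another fusion protein. No line without the fusion was among the arrays used here, so the effect of 4-OHT itself and that of FOXO1(3A)ER cannot be told apart. The labels say that the experiment was done 2 times and name no separate cultures, so a p-value covers only the variation from array to array, some of it possibly technical. In RNA from whole cultures, fewer cells of a kind and less RNA per cell cannot be told apart.

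The 4 arrays labelled L1236 went in part against that label. All 6 T cell markers lay above the floor of 5 log2 units on them, with group means from 8.14 to 12.22 under vehicle. In KM-H2 and L428, 0 of the 6 reached the floor under vehicle. In UHO-1 4 did, with a highest mean of 5.83, and in SUP-HD1 3, with a highest mean of 5.57. IRF4, a B cell and plasma cell regulator strongly expressed in Hodgkin cells, stood at 6.31 under vehicle in the arrays labelled L1236 and at 11.45 or more under vehicle in the other lines. All 10 listed Hodgkin cell markers reached the floor on the arrays labelled L1236. Their median under vehicle was 7.09, against 10.21 in UHO-1 and 9.38 in SUP-HD1, normalised together with them. Of these markers only TNFRSF8, at 7.76, lay above either line (7.14 in SUP-HD1). Among B cell markers, CD79A stood at 9.33 under vehicle, above UHO-1 (6.11) and SUP-HD1 (6.63). PAX5 stood at 6.37, below both (9.72 and 9.42). The results under the L1236 label are therefore given as those of the arrays labelled L1236. The counts and named averages over the 5 lines that turn on them are also given without them. Some markers of other cells were called in each line with 4-OHT. The myeloid gene LYZ went from 4.27 to 7.93 in the arrays labelled L1236, where 1 of 4 tested myeloid markers was called higher. On the same arrays 2 T cell markers were called higher and 1 lower, and the B cell gene CD79A went from 9.33 to 11.70. The matrix gene LUM went from 3.41 to 12.18 in KM-H2, where 2 of 6 stromal markers were called higher and 1 lower. In L428 1 myeloid marker was called higher, and in SUP-HD1 1 was called lower. In UHO-1 2 myeloid markers, 1 stromal marker and 1 B cell marker were called lower and 1 stromal marker higher. The part of these markers in the results on ribosomal protein genes was not tested.

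The start of the mRNA is shown for members that the results below turn on, because the pyrimidine run at that place is the feature most of these genes share. RefSeq promoters of GRCh38.p14 were found for 54 of the 65 members, each window holding the 250 bases before a gene's start and the 50 after it. An unbroken run of at least 5 C or T letters that covered the start was present in 41 of the 54 members (75.9%). Where a member had several starts, the longest run counted. Taken start by start, 64.6% of the 65 starts of these members had a run. Of all 35116 RefSeq promoters of the same length, 9.60% had one. Each line below gives the 20 bases before the start and 20 from the start on, read 5′ to 3′ on the gene's strand, with the run in capitals where there was one. RPS6, RPS14, RPS24 and RPS27 are small-subunit genes with a run. RPS15 had no run of that length at its start, but one lies a few bases after it. RPL22 and its paralogue RPL22L1 both had a run, as did RPL36AL, while RPS27L, the paralogue of RPS27, and RPL7L1, the paralogue of RPL7, had none.
RPS6: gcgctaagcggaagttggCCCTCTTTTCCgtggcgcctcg (chr9:19380217-19380256, minus strand)
RPS14: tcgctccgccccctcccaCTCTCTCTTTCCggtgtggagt (chr5:150449720-150449759, minus strand)
RPS24: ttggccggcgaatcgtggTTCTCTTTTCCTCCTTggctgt (chr10:78033843-78033882, plus strand)
RPS15: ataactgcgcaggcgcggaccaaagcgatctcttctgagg (chr19:1438376-1438415, plus strand)
RPS27: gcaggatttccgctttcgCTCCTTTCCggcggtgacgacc (chr1:153990742-153990781, plus strand)
RPS27L: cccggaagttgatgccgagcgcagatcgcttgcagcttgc (chr15:63157458-63157497, minus strand)
RPL22: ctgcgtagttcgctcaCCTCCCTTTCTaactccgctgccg (chr1:6199576-6199615, minus strand)
RPL22L1: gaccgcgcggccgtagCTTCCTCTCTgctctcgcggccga (chr3:170870176-170870215, minus strand)
RPL7L1: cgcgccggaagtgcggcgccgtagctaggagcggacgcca (chr6:42879596-42879635, plus strand)
RPL36AL: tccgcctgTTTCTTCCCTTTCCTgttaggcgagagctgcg (chr14:49620607-49620646, minus strand)

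Averaged over the 5 lines, most ribosomal protein genes moved little with 4-OHT, more of them down than up. Changes are given throughout as the log2 value with 4-OHT minus that with vehicle. A gene was called where limma's p-value, adjusted by the Benjamini-Hochberg method over all 15850 genes tested, was below 0.05. All 65 members passed the floor used for testing, and 63 stood at or above it on all 20 arrays. Of the members, 23 were called lower (35.4%, against 21.2% of all genes tested) and 3 higher (4.62%, against 17.4%). Most members are bright, and the share of all genes called lower was 13.2% at means below 8 and 44.8% at 11 or more. With a floor of 10 log2 units in place of 5, 36.5% of members and 36.2% of all genes were lower. At that floor 3.85% of members and 30.7% of all genes were higher. The median change was -0.038 over the members and -0.025 over all genes. In 51 of the 65 (78.5%) the change was under 0.1 in size, which held for 56.5% of all genes. The largest were -0.29 for RPL39L and 0.21 for RPS27L. The members varied little between arrays of a group, with a median SD of 0.059 against 0.102 over all genes.

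How these small changes divided between up and down depended on how the arrays were scaled. With cyclic loess, which evens out differences that vary with signal level, computed on the genes that are not members, 13 members were called higher and 11 lower (16.9% lower), and the members' median was 0.0018 in place of -0.038. Over all genes that scaling called 21.1% higher and 17.6% lower, with a median of 0.0011. Cyclic loess on all genes within each separately normalised set gave 4 members higher and 21 lower, against 19.3% and 19.2% of all genes. Quantile normalisation of the 20 arrays together gave 2 higher and 28 lower (17.5% and 23.3% of all genes), and median centring 2 higher and 21 lower (14.7% and 21.8% of all genes). Without the arrays labelled L1236, the deposited values gave 12 lower (18.5%, against 21.0% of all genes) and 4 higher (6.15%, against 18.2%), with a median of -0.019. All 12 had also been called lower over the 5 lines. With the 5 lines as the replicates, 0 members passed in limma and 8 had an unadjusted p below 0.05. Of all 15850 genes only 1 passed there, and 2496 had an unadjusted p below 0.05.

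By line, and for the values as deposited, members were called less often than all genes in both directions in KM-H2, L428 and UHO-1, and more often downwards on the arrays labelled L1236. These are shares side by side, with no test of their difference. On those arrays 19 members were called lower (29.2%, against 14.9% of all genes) and 0 higher (8.25% of all genes were), with a median change of -0.098. With a floor of 10 log2 units the shares lower there were 34.6% of members and 30.9% of all genes. At mean levels of 11 or more the median there was -0.086 for members and -0.085 for all genes. From 8 to 11 these medians were -0.15 and -0.070, and below 8 they were -0.11 and 0.025. Without vehicle replicate 2 of those arrays, the median over all levels was -0.081 for members and -0.031 for all genes. Without 4-OHT replicate 2 these were -0.081 and -0.025. Under cyclic loess on the non-members the 19 members lower there became 3 (4.62%, against 11.5% of all genes). In KM-H2, 3 members were called higher and 2 lower (10.0% and 12.3% of all genes were), with a median of -0.025. L428 had 6 higher and 7 lower (12.0% and 17.5% of all genes), a median of -0.028, and 29 higher with 3 lower under cyclic loess on the non-members, where the median turned to 0.090. The share higher was then 44.6% of members against 15.2% of all genes, and the share lower 4.62% against 14.8%. UHO-1 had 3 higher and 5 lower (13.4% and 11.1% of all genes). Its median was -0.029, against -0.035 over all genes. In UHO-1, 15 members were lower under cyclic loess within each set (23.1%, against 8.16% of all genes) and 17 under quantile normalisation (26.2%, against 13.2%), so that there the members were called lower more often than all genes. SUP-HD1, the line with the fewest calls over all genes, had 0 higher and 2 lower members (3.68% and 2.35% of all genes) and a median of -0.046, which was 0.0044 without vehicle replicate 1 and -0.092 without vehicle replicate 2. Members called in no line numbered 31, in 1 line 23, in 2 lines 9 and in 3 lines 2. Direction was the same in all 5 lines for 16 members, all of them lower (24.6%, against 9.74% of all genes), while 6.75% of all genes were higher in all 5. In the 4 lines other than L1236, 17 members were lower throughout (26.2%, against 15.2% of all genes) and 4 higher throughout (6.15%, against 11.7%).

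**Figure D1:**
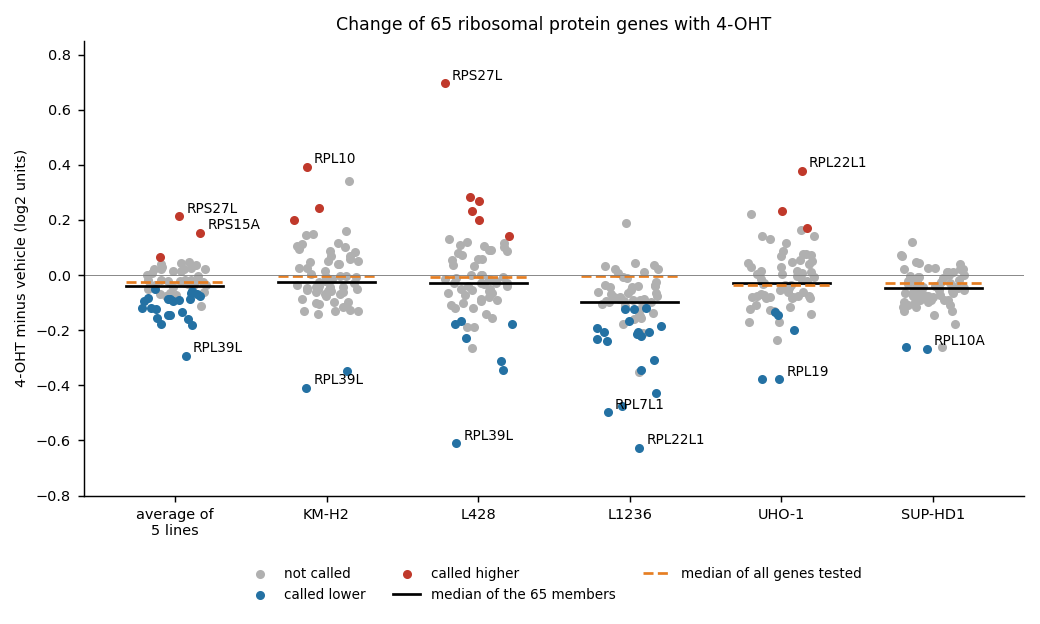
Change of each of the 65 ribosomal protein genes with 4-OHT, in log2 units on the vertical axis, for the average and for each line; red points were called higher, blue lower and grey not called, black lines are the members' medians and dashed orange lines the medians of all 15850 genes. Most points lie close to 0, and RPS27L in L428 (0.70) and RPL22L1 on the arrays labelled L1236 (-0.63) lie farthest out, with the members' median below 0 in each column for the values as deposited and at 0.0018 on average under cyclic loess on the non-members.

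Signals of this family are high, so room for a rise was examined. The highest member on each array stood between 13.24 and 13.54, while the brightest probe set of any kind stood between 13.84 and 14.22. From 13 to 18 members exceeded the 99th percentile of all probe sets of an array, and from 1 to 6 lay within 1 log2 unit of its maximum. The 39 members with a mean of 11 or more had a median absolute change of 0.036 on average, and 2 of them were called higher and 11 lower. Among the 9 members with a mean below 8 the same figure was 0.114, with 1 higher and 3 lower, beside 12.4% and 13.2% of all genes below 8. For the 17 members from 8 to 11 it was 0.087, with 0 higher and 9 lower, beside 26.5% and 34.3% of all genes at that level. Without the arrays labelled L1236 the figures were 0.037 (2 higher, 7 lower) at 11 or more and 0.094 (1 higher, 1 lower) below 8. All 315 genes at 11 or more, which include the 39 members, had a median absolute change of 0.088, with 44.8% called lower and 20% higher. For all genes below 8 that figure was 0.071, and from 8 to 11 it was 0.116. Of the bright and the dim end, the bright one thus had the smaller value among the members and the larger one over all genes.

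Several genes allowed the same question to be asked within the gene, since 11 members had probe sets whose mean levels lay at least 2 log2 units apart. On the arrays labelled L1236 the dimmest probe set changed more in the downward direction than the brightest in 9 of the 11, with medians of -0.26 and -0.19. RPL27A, a large-subunit protein, had -0.70 ± 0.0957 (SE) in its dim and -0.19 ± 0.0547 in its bright probe set there, both called lower by limma. RPL34 had -0.49 in the dim and -0.12 in the bright probe set, and RPL41, the smallest ribosomal protein, -0.59 and 0.02; in these 2 only the dim one was called. In all, 6 bright and 4 dim sets were called lower there. RPL13 and RPL27A passed in both, while RPL12, RPL26L1, RPL29 and RPS15 passed only in the bright set. RPS15 went the other way, with -0.08 in the dim probe set and -0.43 in the bright one. In KM-H2 the dim probe set was the lower in 0 of the 11, and the medians were 0.070 for the dim and -0.029 for the bright sets. In L428 it was the lower in 9 of the 11, in UHO-1 in 7 and in SUP-HD1 in 8. Saturation was not tested as a source of these gaps. Over all 23 members with several probe sets, the average change had 1 sign in 19 and both signs in 4.

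**Figure D2:**
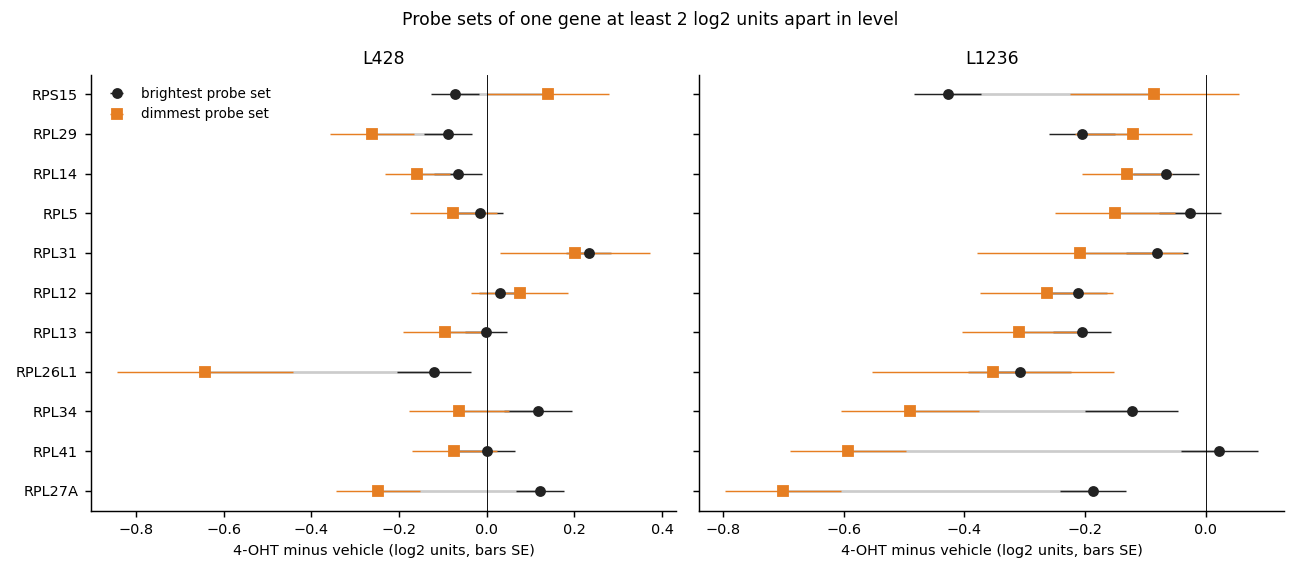
Change with 4-OHT, in log2 units with bars of 1 SE, in the brightest (black circles) and dimmest (orange squares) probe set of the 11 genes whose probe sets lay at least 2 log2 units apart, for L428 and the arrays labelled L1236. On the latter the dim sets of RPL27A, RPL41 and RPL34 lie farthest below 0, at -0.70, -0.59 and -0.49.

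**Figure D3:**
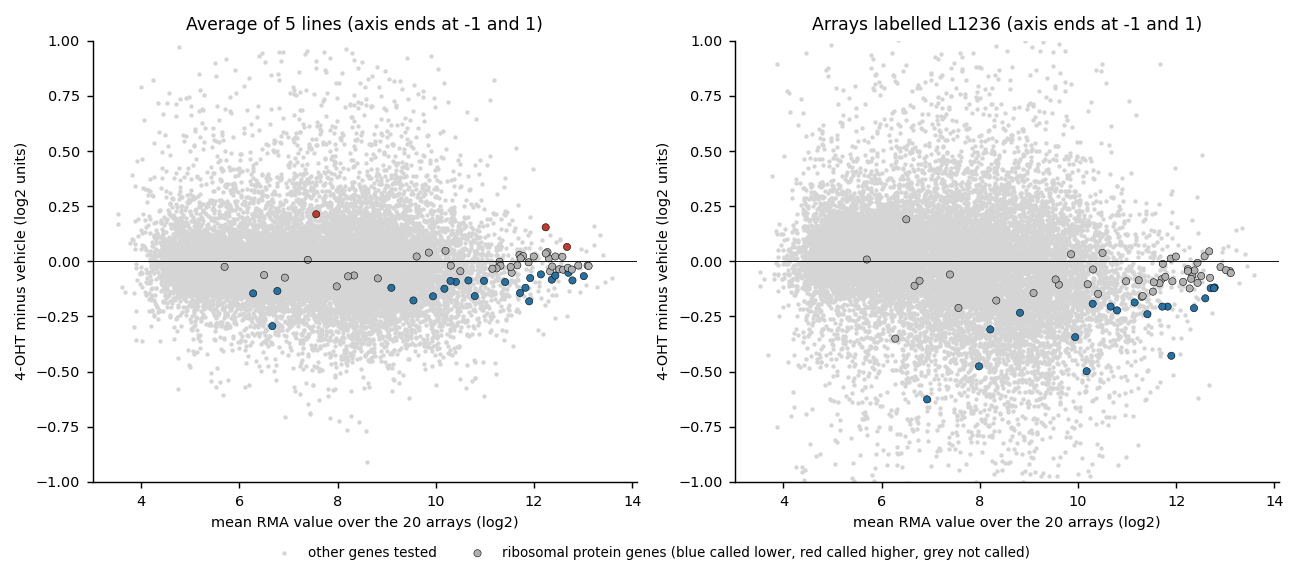
Change with 4-OHT (log2 units) against the mean RMA value over the 20 arrays (log2), for the average of the lines on the left and the arrays labelled L1236 on the right; small grey points are the other genes tested, ringed points the 65 members, and genes beyond -1 or 1 are not drawn. The members gather at the bright end, with few changes beyond 0.2 in size on the left, and RPS27L (0.21) and RPL39L (-0.29) are 2 of the dimmer members.

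Some of the 8 paralogues, close copies of a ribosomal protein that are often expressed in fewer tissues, had the largest changes of a single line among the probe sets used for each gene. Not every paralogue did, and the paralogues were not tested against the other members. RPS27L, a copy of RPS27 known as a p53 target, read 6.355 and 6.111 on the vehicle arrays of L428 and 6.853 and 7.005 with 4-OHT. The arms of L428 did not overlap. The change was 0.70 ± 0.132 (SE), a 1.62-fold rise, with limma's adjusted p = 0.000235. KM-H2 arrays read 6.90 and 7.21 under vehicle and 7.61 and 7.18 with 4-OHT, so the arms overlapped (0.34, adjusted p = 0.0713 in limma). In UHO-1 the change was 0.22 (adjusted p = 0.211), in SUP-HD1 0.02 and on the arrays labelled L1236 -0.21 (adjusted p = 0.308). Over the 5 lines RPS27L rose by 0.21 ± 0.0589 (SE; limma's adjusted p = 0.00566). That call was lost without L428 (0.09, adjusted p = 0.306), and without the arrays labelled L1236 the change was 0.32 (adjusted p = 0.000422). RPS27 itself, at 12.67 on average, rose by 0.065 ± 0.0184 (adjusted p = 0.00642 in limma) and by 0.07 without the arrays labelled L1236 (0.0116). It no longer passed under median centring (adjusted p = 0.0798), under quantile normalisation (0.0628) or without L428 (0.111).

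RPL39L, a copy of RPL39 known mainly from the testis and from some tumours, was the member that fell most. L428 arrays read 8.26 and 8.46 under vehicle and 7.80 and 7.70 with 4-OHT, a change of -0.61 ± 0.114 (SE) or 1.53-fold lower (limma's adjusted p = 0.000191). KM-H2 read 8.22 and 8.28 under vehicle and 7.82 and 7.86 with 4-OHT. The arms did not overlap in either line. The change in KM-H2 was -0.41 (adjusted p = 0.0101 in limma) and missed the threshold without vehicle replicate 2 (0.0807) or without 4-OHT replicate 1 (0.073). SUP-HD1 read 7.62 and 7.51 against 7.40 and 7.21, a change of -0.26 that did not pass (adjusted p = 0.225). In UHO-1 and on the arrays labelled L1236 the gene lay near the floor, between 4.71 and 5.03 on all 8 arrays, so a fall was not detectable there. Its average change was -0.29 ± 0.0508 (limma's adjusted p = 5.98e-05) and -0.34 without the arrays labelled L1236 (adjusted p = 1.24e-05). RPL39, its parent gene, had no probe set with 1 symbol and is not a member.

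RPL22L1 and RPL22 encode proteins that can replace each other in the ribosome. On the arrays labelled L1236, RPL22L1 read 7.33 and 7.68 under vehicle and 6.92 and 6.83 with 4-OHT. In UHO-1 the readings were 6.12 and 6.19 against 6.56 and 6.51. Neither pair of arms overlapped, and the directions were opposite. The first change was -0.63 ± 0.119 (SE; limma's adjusted p = 0.000355), which held without any 1 of those 4 arrays. The second, 0.38 ± 0.119 (adjusted p = 0.0242), was lost in limma without any 1 of the 4 UHO-1 arrays, with adjusted p from 0.0712 to 0.121. Changes in KM-H2, L428 and SUP-HD1 were 0.03, -0.06 and -0.09. RPL22 changed by -0.15 on average (limma's adjusted p = 0.0489), and this was lost in 16 of the 20 fits that left out 1 array (adjusted p from 0.00883 to 0.133) and without the arrays labelled L1236 (-0.09, 0.176). The largest RPL22 change of a single line was -0.35 on the arrays labelled L1236 (adjusted p = 0.0517).

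RPL7L1, a copy of RPL7, moved in opposite directions in different lines. L428 read 10.35 and 10.40 under vehicle and 10.08 and 10.05 with 4-OHT, a fall of 0.31 ± 0.0626 (SE; limma's adjusted p = 0.000432). The arrays labelled L1236 read 10.02 and 10.12 against 9.69 and 9.46, a change of -0.50 ± 0.0626 (adjusted p = 2.34e-06 in limma). KM-H2 rose instead, from 9.84 on both vehicle arrays to 10.05 and 10.03. That rise of 0.20 (limma's adjusted p = 0.0219) was lost without any 1 of the 4 KM-H2 arrays (adjusted p from 0.0657 to 0.112), and the other RPL7L1 probe set gave 0.00 there. The other set gave -0.45 in L428 and -0.37 on the arrays labelled L1236. UHO-1 and SUP-HD1 changed by -0.0048 and -0.0074 in the first set and by 0.17 and -0.28 in the other, where neither passed (limma's adjusted p = 0.169 and 0.0772). The average of -0.12 (adjusted p = 0.00101 in limma) no longer passed without L428 (-0.08, 0.0807) or without the arrays labelled L1236 (-0.03, 0.365). RPL7 changed by 0.02 on average and was not called.

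The remaining paralogues gave 4 further values. RPL26L1, a copy of RPL26, fell on the arrays labelled L1236 by 0.31 ± 0.085 (SE; limma's adjusted p = 0.00963), from a vehicle mean of 9.29 to 8.98, with arms that did not overlap. That call was lost without 4-OHT replicate 2 (adjusted p = 0.072). RPL36AL, whose protein is nearly identical to that of RPL36A, rose in UHO-1 by 0.23 ± 0.0584 (adjusted p = 0.00669 in limma), from 9.85 and 9.83 to 10.07 on both 4-OHT arrays. It was not called on average (0.05), but it was without the arrays labelled L1236 (0.09, adjusted p = 0.012). RPL3L, a copy of RPL3 that is used mainly in muscle, lay at a mean of 6.50 and fell in UHO-1 by 0.38 (limma's adjusted p = 0.0306), which was lost without any 1 of the 4 UHO-1 arrays (from 0.0792 to 0.154). RPL10L, a testis copy of RPL10, stood at 5.70 and was called in 0 lines, with changes from -0.13 to 0.10. RPL3 and RPL26 were not called on average, at -0.04 and 0.02.

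**Figure D4:**
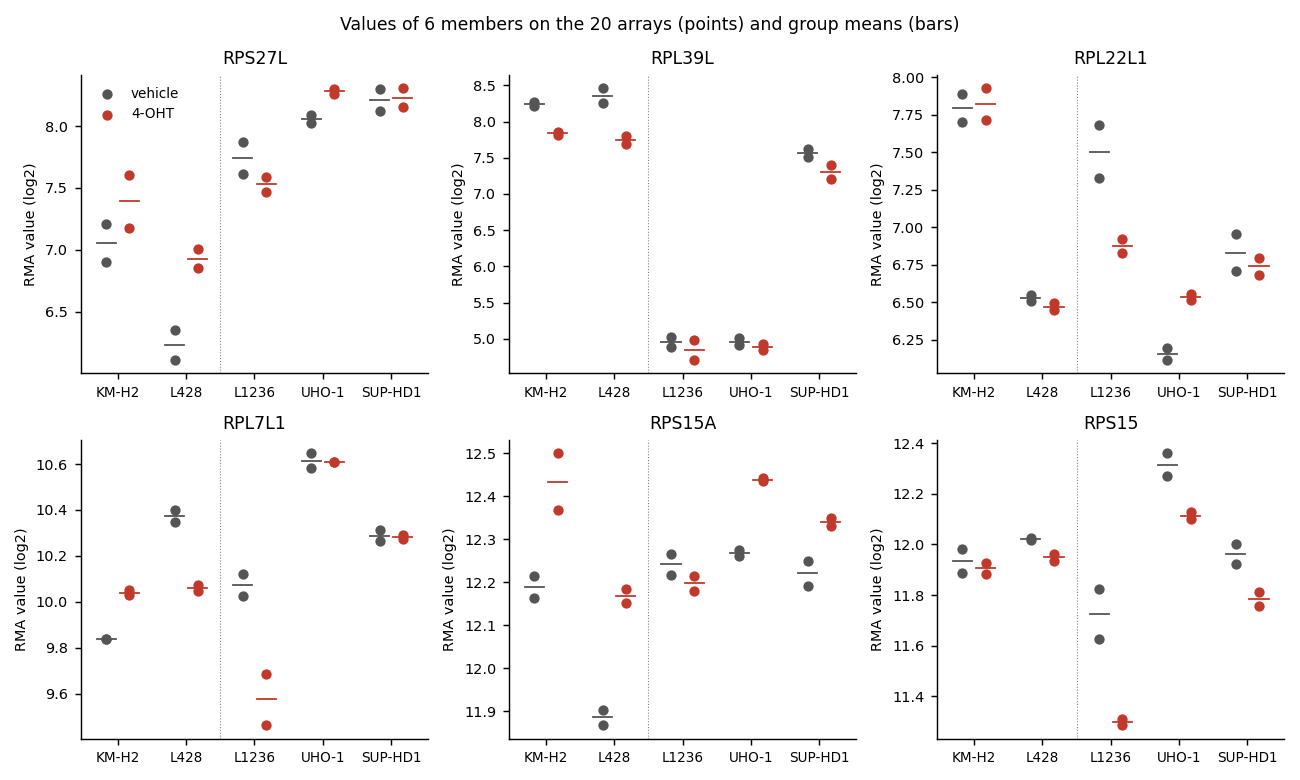
RMA values (log2) of RPS27L, RPL39L, RPL22L1, RPL7L1, RPS15A and RPS15 on the 20 arrays, vehicle in grey and 4-OHT in red, with bars at the means of the 2 arrays; the dotted line parts the 2 sets of lines that were normalised separately, so levels are not comparable across it. RPS27L and RPL39L separate most in L428, and RPL22L1 falls on the arrays labelled L1236 (from 7.33 and 7.68 to 6.92 and 6.83) and rises in UHO-1.

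The widest spans between lines before treatment were those of 3 paralogues, with RPS23 close behind. Levels were compared only within the 2 sets of lines normalised together, KM-H2 with L428 and the other 3 lines with each other. The vehicle mean of RPL26L1 differed by 2.49 log2 units between KM-H2 and L428, where L428 was higher. In the other set it spanned 3.12, from SUP-HD1 to UHO-1. RPL39L spanned 2.61 among those 3 lines, with SUP-HD1 the highest, and 0.11 between KM-H2 and L428. RPL22L1 spanned 1.27 and 1.35. These spans were many times the replicate SD of the same genes, which was 0.077, 0.106 and 0.122. RPS23 spanned 1.33 in the first set, more than RPL22L1 there, and 0.99 in the second. RPL10L, RPL36AL and RPL3L spanned from 0.025 to 0.082 in the first set. The median span of the 8 paralogues was 0.32 in the first set and 0.51 in the second, and that of the other 57 members 0.36 and 0.29.

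Among the small-subunit genes other than paralogues, 2 of 21 were called higher on average and 11 lower, beside 17.4% and 21.2% of all genes. Without the arrays labelled L1236 these were 2 and 7, beside 18.2% and 21.0%. RPS15A rose: KM-H2 read 12.16 and 12.22 under vehicle and 12.50 and 12.37 with 4-OHT, L428 read 11.87 and 11.90 against 12.19 and 12.15, and UHO-1 read 12.28 and 12.26 against 12.44 on both arrays. None of these arms overlapped. The changes were 0.24 ± 0.0439 (SE), 0.28 ± 0.0439 and 0.17 ± 0.0439, with limma's adjusted p = 0.000181, 2.42e-05 and 0.00774. The UHO-1 call missed the threshold without replicate 2 of either arm (adjusted p of 0.0594 and 0.0523). SUP-HD1 changed by 0.12 (adjusted p = 0.136) and the arrays labelled L1236 by -0.04. The average was 0.15 ± 0.0196 (adjusted p = 1.11e-06 in limma) with these arrays and 0.20 (4.37e-07) without them.

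RPS15, which takes part in the late maturation of the small subunit and is mutated in some chronic lymphocytic leukaemias, was lower in all 5 lines. The arrays labelled L1236 read 11.83 and 11.63 under vehicle and 11.31 and 11.29 with 4-OHT, a change of -0.43 ± 0.0545 (SE; limma's adjusted p = 2.73e-06). UHO-1 read 12.36 and 12.27 against 12.10 and 12.13, a change of -0.20 (adjusted p = 0.0113 in limma). Arms did not overlap in these 2 lines. The UHO-1 call was lost without vehicle replicate 1 (adjusted p = 0.115) or 4-OHT replicate 1 (0.0759). KM-H2, L428 and SUP-HD1 changed by -0.03, -0.07 and -0.18, none of them called. On average RPS15 fell by 0.18 ± 0.0244 (limma's adjusted p = 2.38e-06), and without the arrays labelled L1236 by 0.12 (adjusted p = 0.000381). Its dim probe set, at a mean of 6.06, changed by -0.03 on average and was not called.

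RPS24, a small-subunit protein mutated in some patients with Diamond-Blackfan anaemia, read 8.81 on both vehicle arrays of L428 and 8.44 and 8.50 with 4-OHT. The arms of L428 were well apart, and the change of -0.35 ± 0.0598 (SE) passed in limma (adjusted p = 8.46e-05). SUP-HD1 read 9.94 on both vehicle arrays and 9.65 and 9.71 with 4-OHT, a change of -0.26 (adjusted p = 0.00875 in limma), which was lost without 4-OHT replicate 1 (0.133). RPS24 fell by 0.18 ± 0.0267 on average (adjusted p = 1.08e-05) and by 0.20 without the arrays labelled L1236 (1.02e-05). RPS14, lost with the deleted stretch of chromosome in the 5q- syndrome, fell by 0.14 ± 0.0315 on average (limma's adjusted p = 0.000801) and by 0.13 without the arrays labelled L1236 (0.0088). Its largest change in a line, -0.21 on the arrays labelled L1236 (adjusted p = 0.0379), was lost without any 1 of those 4 arrays (from 0.0536 to 0.253).

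RPS23, a protein at the decoding centre, changed by -0.16 on average (limma's adjusted p = 0.01) and by -0.11 without the arrays labelled L1236 (0.119), where it had read 11.06 and 11.13 under vehicle and 10.75 on both 4-OHT arrays. RPS21, another small-subunit protein, fell by 0.12 ± 0.028 (SE) on average (adjusted p = 0.00141 in limma) and by 0.11 without those arrays (0.00609). RPS29, the dimmest of the small-subunit genes with a mean of 6.77, had -0.13 on average (limma's adjusted p = 0.048), which was lost in 13 of the 20 fits without 1 array (from 0.00914 to 0.142) and without the arrays labelled L1236 (0.0515). RPS6, the protein phosphorylated by the S6 kinases, changed by -0.059 ± 0.0206 on average (adjusted p = 0.0256 in limma). This was lost in 7 of the 20 fits without 1 array (from 0.00287 to 0.0644), without the arrays labelled L1236 (0.0933) and under cyclic loess on the non-members (-0.01, 0.565). RPS19, the gene most often mutated in Diamond-Blackfan anaemia, changed by -0.0045 and was not called.

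Of the 36 large-subunit genes other than paralogues, 0 were called higher on average and 10 lower, beside 17.4% and 21.2% of all genes. Without the arrays labelled L1236 these were 0 and 4. RPL10A, a protein of the L1 stalk, fell by 0.16 ± 0.0246 (SE; limma's adjusted p = 1.74e-05) and by 0.14 without the arrays labelled L1236 (0.000324). SUP-HD1 read 11.04 and 11.06 under vehicle and 10.86 and 10.70 with 4-OHT. The arms did not overlap, and the change was -0.27 (adjusted p = 0.00326 in limma), lost without 4-OHT replicate 2 (0.14). The arrays labelled L1236 had -0.22 (adjusted p = 0.00426), lost without replicate 2 of either arm (0.0535 and 0.0847). L428 and KM-H2 had -0.14 and -0.13 and UHO-1 -0.03, none of them called.

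RPL10, a protein added late to the large subunit and mutated in some T cell leukaemias, was called in opposite directions in 2 lines. KM-H2 read 10.64 and 10.41 under vehicle and 10.93 and 10.91 with 4-OHT, a rise of 0.39 ± 0.071 (SE; limma's adjusted p = 0.000195). L428 read 11.36 and 11.59 against 11.31 and 11.18, a change of -0.23 (adjusted p = 0.0166 in limma). The arms did not overlap in either line, but the L428 call was lost without replicate 2 of either arm (0.348 and 0.205). The average was -0.0016. RPL19, a large-subunit protein, read 10.65 and 10.82 under vehicle and 10.37 and 10.35 with 4-OHT in UHO-1, a change of -0.38 (limma's adjusted p = 0.0099), lost without replicate 2 of either arm (0.125 and 0.0615). In L428 it had 0.27 (adjusted p = 0.0495), with overlapping arms of 10.81 and 10.42 against 10.93 and 10.83, and 0.08 (0.709) without vehicle replicate 2. RPL32, of the same subunit, read 8.29 and 8.59 under vehicle and 7.94 and 7.99 with 4-OHT on the arrays labelled L1236, a change of -0.48 (adjusted p = 0.0231 in limma) that became -0.32 (0.263) without vehicle replicate 2.

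The acidic stalk proteins, which recruit translation factors, were not called on average in limma: RPLP1 changed by -0.029 ± 0.0163 (SE; adjusted p = 0.175) and RPLP2 by -0.023 ± 0.0193 (0.38). RPL5 and RPL11, which bind and inhibit MDM2 when ribosome assembly is disturbed, changed by -0.019 ± 0.0229 (adjusted p = 0.567) and -0.02 ± 0.0255 (0.587). On the arrays labelled L1236 RPL11 had -0.16 (adjusted p = 0.0503), and in no line was either gene called. FAU, which encodes the ribosomal protein eS30 and whose symbol the rule does not match, had -0.06 (adjusted p = 0.139).

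Whether a member's change differed between lines was tested with limma's F test. It passed in 19 of the 65 members (29.2%, against 42.7% of all genes tested). RPL7L1 (adjusted p = 7.97e-06), RPL10 (0.000265), RPL22L1 (0.000912), RPS15A (0.00146) and RPS15 (0.00185) had the lowest values. Without the arrays labelled L1236, 11 members passed (16.9%, against 36.4% of all genes). RPL7L1 (0.000132) and RPL10 (0.000714) were still among them, while RPL22L1 (0.0529), RPS15A (0.151) and RPS15 (0.116) were not. Under cyclic loess on the non-members the 19 became 31 (47.7%, against 42.2% of all genes), and without an intensity trend in eBayes 7 (10.8%, against 38.5%).

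Members with and without the pyrimidine run at the start are described side by side, with no test. The sorting rests on the annotated start, and a run beside it that did not cover it was not counted. Among the 41 with a run, 1 was called higher on average and 14 lower, and the median change was -0.037. Among the 13 without one, 1 was higher and 6 lower, with a median of -0.064. Over all genes 17.4% were higher and 21.2% lower. Without the arrays labelled L1236, 2 were higher and 6 lower with a run (median -0.019), and 1 higher and 3 lower without one (median -0.031). On the arrays labelled L1236 the medians were -0.10 with and -0.12 without the run. The E-box CACGTG, the palindromic site of MYC and related factors, was found in 4 of the 54 members with promoters (7.41%). It was in 6.15% of their 65 starts, against 7.26% of all promoters. The members with an E-box were RPL19, RPL7L1, RPS19 and RPS28. The FOXO-type site GTAAACA, searched on both strands like the E-box, was in 0 of the 54 windows and in 3.42% of all promoters. A missing match says only that these letters are not in the 300 bases searched.

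The rest of the ribosome pathway is given from lists of its other parts. MYC was lower in all 5 lines: KM-H2 read 9.03 and 9.06 under vehicle and 6.54 and 6.67 with 4-OHT, a change of -2.44 ± 0.0765 (SE; limma's adjusted p = 6.4e-17). The arrays labelled L1236 had -1.37, L428 -0.61, SUP-HD1 -0.43 and UHO-1 -0.21, all called, although the UHO-1 call was lost in 2 of its 4 fits without 1 array (adjusted p from 0.00934 to 0.514). KM-H2, the line with the largest MYC change, had 3 members higher and 2 lower, beside 10.0% and 12.3% of all genes. A relation between the MYC change and the members was not tested. MDM2 rose by 1.15 ± 0.068 in KM-H2 and by 0.47 ± 0.068 in L428 (limma's adjusted p = 6.31e-12 and 1.07e-05), the 2 lines in which RPS27L had its largest changes. Over the 17 regulators tested, 5 were higher and 4 lower on average, with a median of -0.022.

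Genes that make and assemble ribosomes are described from 3 lists. Of 13 subunit maturation genes, 10 were called lower on average and 0 higher, with a median of -0.17, and 6 were lower without the arrays labelled L1236. BYSL, needed to finish the small subunit, fell by 0.37 ± 0.0342 (SE; limma's adjusted p = 7.19e-09), and GRWD1, a chaperone of RPL3, by 0.31 ± 0.0287 (adjusted p = 8.54e-09 in limma). Of 14 RNA polymerase I genes, 8 were lower and 3 higher, with a median of -0.15, and 7 were lower and 3 higher without the arrays labelled L1236. Their median was -0.0061 in KM-H2 and -0.010 in UHO-1. POLR1E, a subunit of that polymerase, fell by 0.38 ± 0.0308 (adjusted p = 1.19e-09 in limma). POLR1F, another subunit, had an average of 0.72 that rested on KM-H2, where it rose by 3.17 from 7.85 and 7.66 to 10.94 and 10.92. Without KM-H2 its average was 0.10 (limma's adjusted p = 0.0791). Of 14 translation factors and other genes whose mRNAs begin with a pyrimidine run, 5 were lower and 1 higher, with a median of -0.018, and 4 lower and 1 higher without the arrays labelled L1236. EIF4B fell by 0.12 ± 0.02 and NPM1 by 0.13 ± 0.023 (adjusted p = 2.55e-05 and 9.6e-05 in limma). These counts are a description of each list beside the 21.2% lower and 17.4% higher over all genes, and no list was tested against another. Most maturation and RNA polymerase I genes had mean levels from 8 to 11, where 34.3% of all genes were lower and 26.5% higher.

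**Figure D5:**
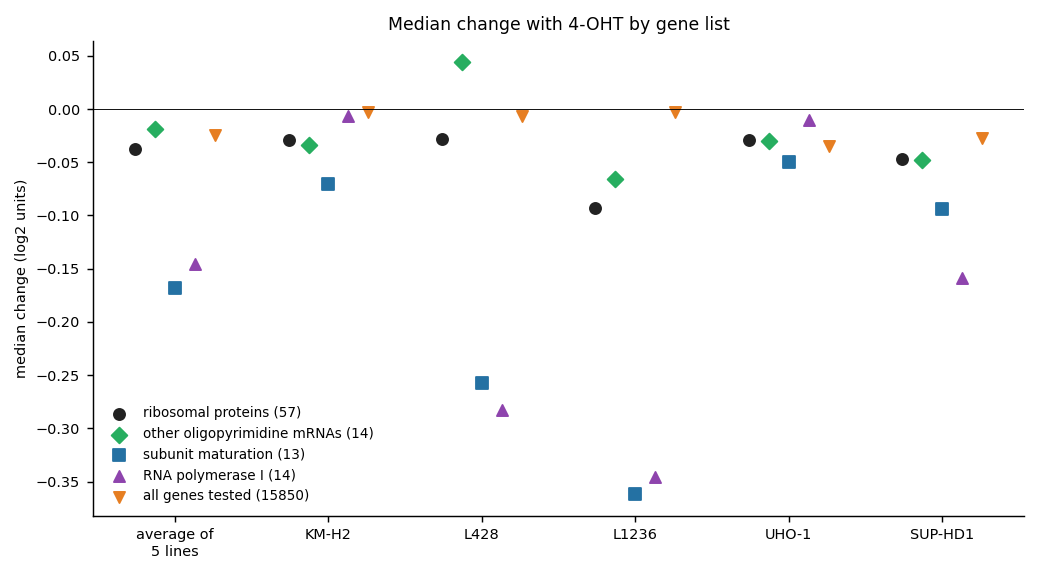
Median change with 4-OHT, in log2 units, of the 57 members that are not paralogues, of 3 other lists and of all 15850 genes tested, for the average and each line. The maturation and RNA polymerase I lists lie lowest on average (-0.17 and -0.15), farthest down on the arrays labelled L1236 and in L428, while the ribosomal protein median stays within 0.1 of 0 in each column; in L428 it turns from -0.028 to 0.090 over all 65 members with cyclic loess on the non-members.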

How the data were processed

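The authors deposited log2 values, 1 per probe set and array, from the robust multichip average (RMA), per the labels and the submitters' processing notes; the version of RMA is not given in the sources used here. Sorted values showed 2 separate normalisations, 1 of KM-H2 with L428 (arrays within 0.253 of each other) and 1 of the other lines (within 0.204), at least 0.712 apart. The table held 33268 probe sets, of which 1751 had several symbols and 12060 none listed. Symbols came from the platform annotation. Of the genes that fit the symbol pattern, 11 had only probe sets with several symbols and were left out. The gene's probe set with the highest mean was used, a gene was tested at log2 values of at least 5 in at least 2 arrays, and limma 3.58.1 in R 4.3.3 (lmFit on 10 group means, eBayes with an intensity trend, 10 residual and 11.8 prior degrees of freedom) gave each contrast, its SE and p-values adjusted over 15850 genes. The script was tested on simulated data. Arrays have no depth, and their number limits the precision. Alternatives covered scaling, the floor, the choice of probe set, the trend, the block, left-out arrays and left-out lines.

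Members and lists were chosen with earlier results of these data known. Genes named were the paralogue pairs, the stalk proteins, RPL5, RPL11, RPS6, RPS14 and RPS19, the 10 members called with the largest average change each way, the 5 called with the largest change in each line, the 8 with the lowest F test p, and per other list the 2 called genes with the lowest p; RPL27A, RPL34 and RPL41 were chosen after their values were seen. Replicate numbers were set against each other as possible pairs: the correlation of deviations of same-numbered arrays was -0.08, 0.04, -0.56, 0.29 and 0.28 in the 5 lines, so they were not taken as pairs.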

Additional observations from a re-analysis of the deposited data

Results flagged for a closer look

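The change with 4-OHT differed between the 5 lines by limma's F test in 12 of the members described above, which is what marked them. Over all genes tested, 42.7% passed the same test. The adjusted p was 7.97e-06 for RPL7L1, 0.000265 for RPL10, 0.000912 for RPL22L1, 0.00146 for RPS15A, 0.00185 for RPS15 and 0.00458 for RPS27L. It was 0.00539 for RPL36AL, 0.0116 for RPL19, 0.0305 for RPS24, 0.0375 for RPL26L1, 0.0428 for RPL39L and 0.0447 for RPLP1. Without the arrays labelled L1236, RPL26L1 (adjusted p = 0.28 in limma's F test) and RPLP1 (0.0638) no longer passed. The same held for RPL22L1, RPS15A and RPS15. RPL7L1, RPL10, RPL19 and RPL22L1 were each called higher in 1 line and lower in another. Groups of 2 arrays were too small to look for single outlying arrays.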

How the results depend on the processing

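No named gene's call turned to the opposite direction under any alternative run, while the members' median changed sign in the settings given here, among them SUP-HD1 (-0.092 to 0.0044 with 1 array left out). The limits are the scaling of bright probe sets, the 2 separate normalisations, 2 arrays a group, and the arrays labelled L1236; the causes of the shifts below were not tested. Under cyclic loess on the non-members, members called higher and lower numbered 13 and 11 on average, 29 and 3 in L428 (median 0.090), 1 and 3 on the arrays labelled L1236 (median -0.013) and 5 and 8 in UHO-1; 4 were lower in KM-H2, 1 higher in SUP-HD1, 31 differed between lines, and of the other pyrimidine-run genes 3 were higher and 2 lower. Cyclic loess within each set gave 5 lower in KM-H2, 12 higher and 4 lower in L428, 1 and 10 on the arrays labelled L1236, 15 lower in UHO-1, 1 higher in SUP-HD1 and 2 higher pyrimidine-run genes. Quantile normalisation gave 5 members lower in KM-H2 and 17 in UHO-1, beside 13.1% and 13.2% of all genes. Median centring gave 3 higher in L428, 5 higher and 1 lower in UHO-1 (median 0.033) and a median of -0.16 on the arrays labelled L1236; the medians of all genes moved alike, to 0.028 and -0.067, so the members minus all genes stayed at 0.0055 and -0.095. Of all genes, median centring called 9.28% higher in L428, and 15.4% higher and 5.77% lower in UHO-1. Without the trend, 3 members were higher and 3 lower in L428 (11.3% and 16.4% of all genes). On the arrays labelled L1236 9 were lower (13.1% of all genes) and in UHO-1 2 (11.4%), and 7 differed between lines (38.5%). A floor of 8 or 10, or KM-H2 fitted alone, left 1 member lower in KM-H2, beside 18.6%, 21.7% and 12.8% of all genes. The floor of 10 also left 4 RNA polymerase I genes lower, 5 maturation genes lower and 1 regulator higher. UHO-1 fitted alone gave 5 members higher, beside 15.7% of all genes. The mean of the probe sets left 0 pyrimidine-run genes higher.

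Leaving out L428 left 1 member higher on average, beside 15.1% of all genes. Without L1236, 12 members and 6 maturation genes were lower, beside 21.0% of all genes. Without KM-H2, FAU became the 1 gene lower outside the symbol pattern and 1 RNA polymerase I gene was higher; without SUP-HD1 FAU was again the 1 lower, and without UHO-1 3 pyrimidine-run genes were lower. KM-H2 and L428 alone gave 7 members higher (10.8%, against 14% of all genes) and 8 lower (12.3%, against 19.5%). In that fit 2 pyrimidine-run genes and 6 maturation genes were lower. The other 3 lines alone gave 1 member higher (1.54%, against 12.6% of all genes). There 2 pyrimidine-run genes were lower, and 0 RNA polymerase I genes and 3 regulators were higher. With the 5 lines as replicates, 0 genes of any of these lists passed, and 1 of all 15850 genes did.

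With 1 array left out, a lone array being assumed to vary like the other groups, members called on average ran from 3 to 4 higher and from 20 to 25 lower (median -0.047 to -0.033). All 3 higher calls and 19 of the 23 lower ones held in each of the 20 fits. Lower calls ran from 0 to 2 in KM-H2, 3 to 7 in L428, 6 to 17 on the arrays labelled L1236, 1 to 3 in UHO-1 and 1 to 2 in SUP-HD1; higher calls ran from 2 to 3 in KM-H2, 3 to 6 in L428 and 1 to 2 in UHO-1; members that differed between lines from 13 to 23. Of the lists, 0 to 1 gene outside the pattern was lower, 1 to 2 pyrimidine-run genes and 0 to 1 maturation gene were higher. Calls over all genes also became fewer in each line when any 1 of its arrays was left out. The replicate block left 3 members higher and 21 lower on average, beside 16.8% and 20.3% of all genes.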
